A study of Homo sapiens with 5 samples.

Results

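The genes described here are the 10 that cut, trim, extend and rejoin DNA during V(D)J recombination, the process by which lymphocyte precursors assemble their antigen receptor genes. They were taken as a fixed list of symbols, of which 3 are restricted to developing lymphocytes (DNTT, RAG1 and RAG2) and 7 serve end joining in cells in general (LIG4, XRCC4, NHEJ1, DCLRE1C, PRKDC, XRCC5 and XRCC6). All 10 were measured, each by 1 probe set, among the 18417 genes tested. The established cell line Nalm6, derived from a human B-precursor leukaemia, was profiled on Affymetrix whole-transcript arrays as 3 clones expressing a MondoA shRNA and 2 control clones expressing a nonsense shRNA, with 1 array per clone. A shRNA is a short hairpin RNA that is processed into a small interfering RNA. All clones were grown at 200 mg/dl D-glucose with 20% serum and shared the Nalm6 background. The title of the series asks how MondoA, a glucose-responsive transcription factor encoded by MLXIP, bears on metabolism, differentiation and survival.

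V(D)J recombination starts when the RAG1 and RAG2 proteins, acting as one complex, cut DNA beside antigen receptor gene segments and leave hairpin-sealed coding ends. The Ku heterodimer then holds the ends, the kinase DNA-PKcs with the nuclease Artemis opens the hairpins, terminal deoxynucleotidyl transferase (TdT, encoded by DNTT) adds untemplated bases, and the XRCC4 and ligase IV complex seals the joint. RAG and TdT expression is a mark of early B- and T-cell precursors, whereas the joining factors repair double-strand breaks in most cells.

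All values are RMA (robust multi-array average) expression in log2 units, and differences are MondoA shRNA minus control shRNA. Errors are SD over n = 3 MondoA shRNA and n = 2 control shRNA arrays, or SE where named. The targeted gene, MLXIP, read 6.42, 6.47 and 6.29 in the clones labelled MondoA shRNA, against 6.42 in both control clones, a difference of -0.03 with a 95% interval of -0.21 to 0.16. The knockdown is therefore not visible in this RNA, and directions here refer to the label. TXNIP and ARRDC4, also listed as a knockdown check, differed by -0.10 and -0.08 (unadjusted p = 0.281 and 0.194, limma), with overlapping groups. B-precursor markers were high in all arrays, with 7 of 9 measured at levels from 7.35 to 10.43. The 9 T-lineage markers ran from 2.18 to 6.52, with the kinase gene LCK and CD7 as the highest and the defining genes CD3D, CD3E and CD3G between 2.18 and 2.80, against a median gene level of 4.15. The 5 myeloid markers measured ran from 2.82 to 5.64 and the 5 fibroblast markers from 2.17 to 4.79. No gene of the 18417 passed an adjusted p under 0.05 in limma (0% called), and 687 (3.73%) had an unadjusted p under 0.05. The clone is the replicate, so p-values set the group difference against the spread between clones of the same group. How each of the 5 clones was derived is not stated in the labels.

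DNTT had the largest difference of the 10 genes and was the only one at an unadjusted p under 0.05. DNTT read 9.15, 9.73 and 9.09 in the clones labelled MondoA shRNA, against 10.57 and 10.47 in the control clones. Every clone labelled MondoA shRNA lay below both control clones, by a gap wider than the distance between the controls, and clone 2 was the nearest to them. The means were 9.33 ± 0.35 with MondoA shRNA and 10.52 ± 0.07 with control shRNA. The difference was -1.19 ± 0.24 (SE), with a 95% interval of -1.91 to -0.48, an unadjusted p of 0.011 and an adjusted p of 0.833 (limma). On the linear scale the level with MondoA shRNA was 0.438 of that with control shRNA, with an interval of 0.267 to 0.718. DNTT ranked 23rd of all genes by size of difference and 11th among negative differences, and 0.130% of genes differed by -1 or lower. In RNA from a whole culture, fewer cells with a transcript and less transcript per cell cannot be told apart. Over the 4301 genes with 5 different array values, DNTT had an adjusted p of 0.0307 in limma, in a fit that called 1.40% of genes. Without control clone 1 or control clone 2 its unadjusted p was 0.0708 or 0.0597.

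**Figure D1:**
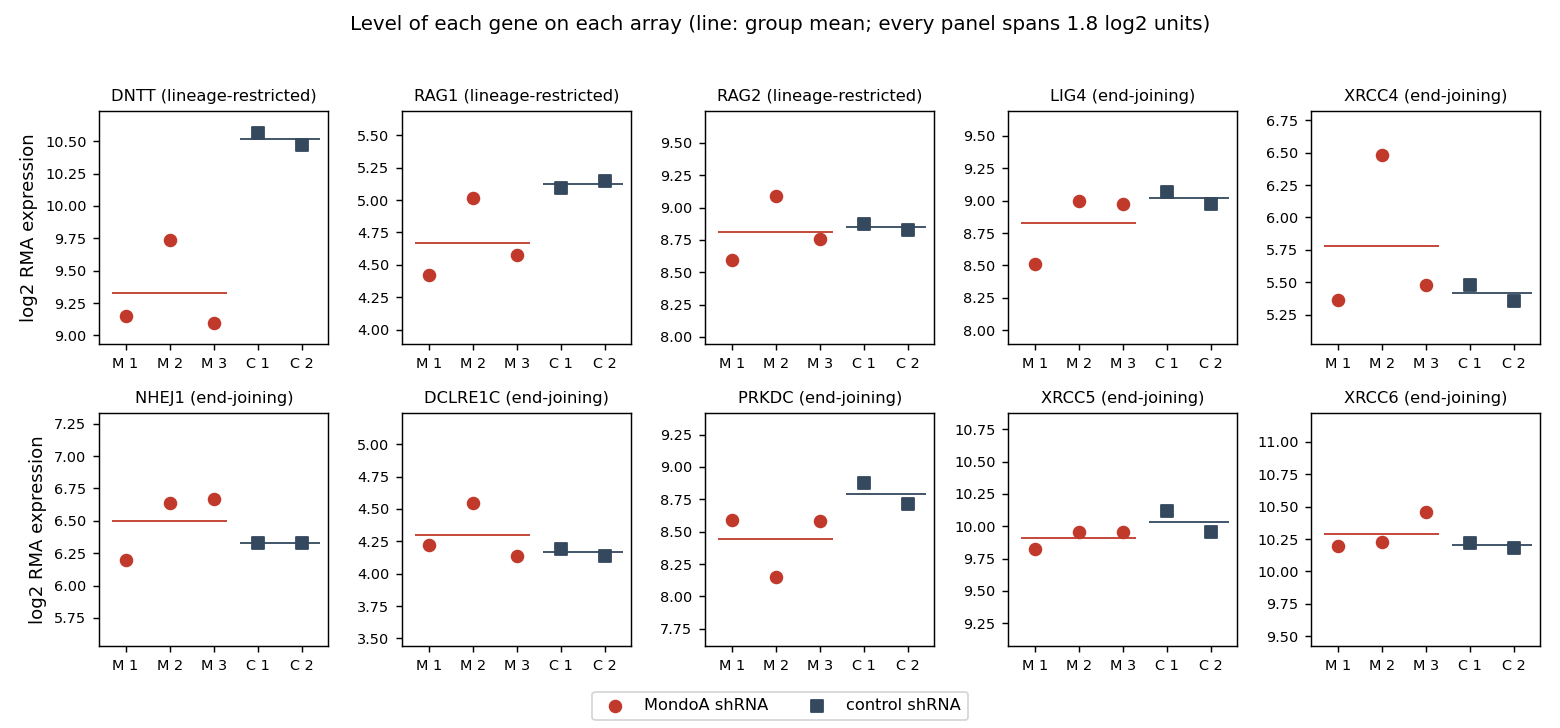
RMA expression (log2, vertical axis) of the 10 genes on each array (horizontal axis), with MondoA shRNA clones (M, red circles) left of control shRNA clones (C, dark squares) and lines at the group means; every panel has the same span. DNTT, RAG1 and PRKDC are the panels in which all 3 red points lie below both squares, and in XRCC4 clone 2 alone stands high at 6.49.

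RAG1 and RAG2, the partner subunits of the recombinase, both had values below 0 for the difference, and neither passed the test. RAG1, which carries the catalytic site, read 4.42, 5.02 and 4.58 in the clones labelled MondoA shRNA, against 5.10 and 5.15 in the control clones. The groups did not overlap, although clone 2 lay close to the controls. These levels are not far above the median gene level of 4.15, and the fibroblast marker COL1A1 read 4.79 in every array. Whether RAG1 was detected was not assessed. The difference was -0.45 ± 0.21 (SE), with a 95% interval of -1.08 to 0.17 (adjusted p = 0.833, limma). The unadjusted p of RAG1 with all arrays was 0.110 (limma). Without clone 2, the clone nearest to the controls, the RAG1 difference was -0.63, with an unadjusted p of 0.00689 and an adjusted p of 0.456. It was -0.33 without clone 1 (unadjusted p = 0.220, limma) and -0.40 without clone 3 (unadjusted p = 0.246, limma). RAG2, the accessory subunit that reads a histone mark, read 8.60, 9.09 and 8.76 in the clones labelled MondoA shRNA, against 8.87 and 8.83 in the control clones. Clones 1 and 3 lay below the controls and clone 2 above them. The RAG2 difference was -0.04 ± 0.17 (SE), with a 95% interval of -0.54 to 0.46. These arrays leave out neither a decrease nor an increase within that interval. The RAG2 difference was 0.07 without clone 1 and -0.17 without clone 2.

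The annotated start regions of DNTT and RAG2 are shown because these are the lineage-restricted genes with the largest and the smallest difference. They are RefSeq windows of GRCh38.p14, from 250 bases before the annotated start to 50 bases after it, 5′ to 3′ on the gene's strand. The DNTT window is chr10:96304184-96304483 on the plus strand and the RAG2 window is chr11:36598187-36598486 on the minus strand. Capitals mark a match, on either strand, to any of 3 motifs. These are the E box CAGGTG, which factors such as that encoded by TCF3 bind, the E box CACGTG, which is the half-site of the element bound by MondoA with its partner MLX, and the string TGGGAA, which holds the core bound by the Ikaros family.
DNTT: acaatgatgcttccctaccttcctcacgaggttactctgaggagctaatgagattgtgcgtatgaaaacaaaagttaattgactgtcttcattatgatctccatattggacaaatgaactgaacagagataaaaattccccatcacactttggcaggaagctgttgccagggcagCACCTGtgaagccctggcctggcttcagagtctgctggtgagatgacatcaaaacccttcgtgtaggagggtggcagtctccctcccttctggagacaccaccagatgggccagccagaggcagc
RAG2: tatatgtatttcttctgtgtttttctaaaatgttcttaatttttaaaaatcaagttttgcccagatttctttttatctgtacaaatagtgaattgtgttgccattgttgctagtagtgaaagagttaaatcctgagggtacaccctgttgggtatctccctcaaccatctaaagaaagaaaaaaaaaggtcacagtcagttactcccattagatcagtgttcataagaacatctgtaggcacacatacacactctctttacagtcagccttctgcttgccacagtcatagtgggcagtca
CAGGTG stands in the DNTT window once, on the minus strand, so that the capitals show its reverse complement, and the first of these capitals lies at -75 from the annotated start. The other motifs are not in the DNTT window, and none of the 3 is in the RAG2 window. Of all 35116 windows in the RefSeq table, 7.26% hold CACGTG, 20.6% hold CAGGTG and 24.0% hold TGGGAA. Over the 8 genes of the group with a window (14 windows in all), CACGTG was found in 0 windows, CAGGTG in 5 and TGGGAA in 4. The windows with CAGGTG belong to DNTT, LIG4 and DCLRE1C, and those with TGGGAA to LIG4 and DCLRE1C. The windows overlap in part for LIG4 and for NHEJ1, and a match to letters is a description of the sequence.

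In each of the 3 clones labelled MondoA shRNA the lineage-restricted genes kept one order relative to the control mean, with DNTT lowest, RAG1 next and RAG2 highest. In clone 1 DNTT stood at -1.37, RAG1 at -0.70 and RAG2 at -0.25 from the control mean. In clone 2 DNTT stood at -0.78, RAG1 at -0.11 and RAG2 at 0.24. In clone 3 DNTT stood at -1.42, RAG1 at -0.55 and RAG2 at -0.09. Clone 2 was thus the highest of the 3 clones for each of these genes. It exceeded clone 1 by 0.59 in DNTT, by 0.60 in RAG1 and by 0.49 in RAG2. Over all genes the median of that contrast was 0.00 and its central 95% ran from -0.43 to 0.69, which holds all 3 values. Clone 2 exceeded clone 3 by 0.64 in DNTT, by 0.44 in RAG1 and by 0.33 in RAG2. The central 95% of all genes for that contrast ran from -0.38 to 0.54, so DNTT lay above it. In RAG1 and RAG2 the step between clones 2 and 1 was larger than the difference between the groups.

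**Figure D2:**
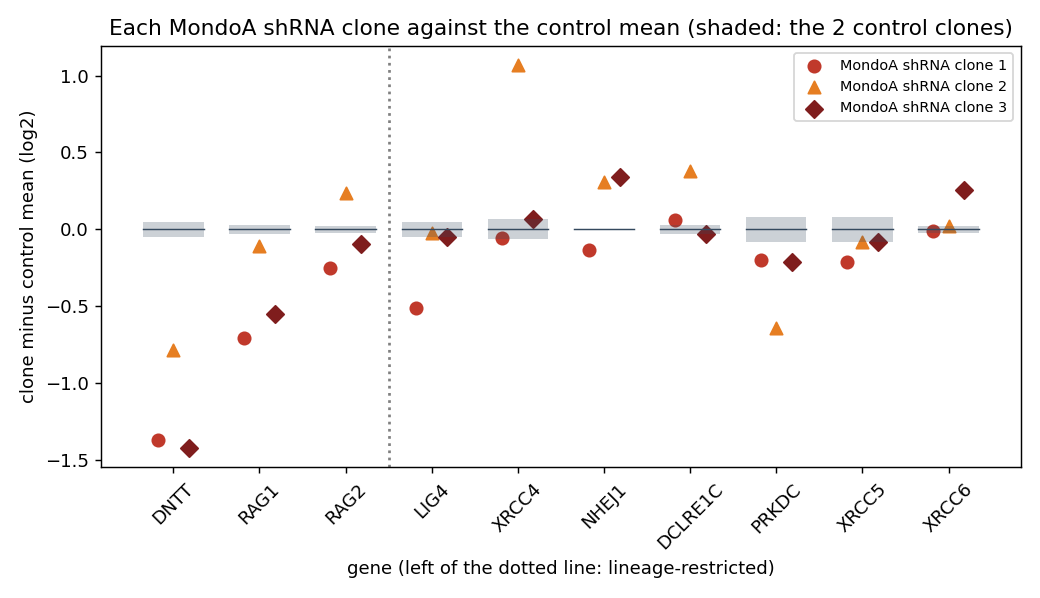
Level of each gene in each MondoA shRNA clone minus the mean of the control clones (log2, vertical axis), with lineage-restricted genes left of the dotted line and the shaded strip spanning the 2 control clones. DNTT lies between -1.42 and -0.78 in all 3 clones, while the end-joining genes scatter on both sides of 0 apart from single clones such as XRCC4 in clone 2 at 1.07.

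The 7 general end-joining genes showed no common direction, with 4 differences above 0 and 3 below, and none was at an unadjusted p under 0.05 in limma with all arrays. Their median difference was 0.09, against -0.45 for the 3 lineage-restricted genes and 0.00 over all genes tested. The median distance of the end-joining genes from the control mean was -0.13 in clone 1, 0.02 in clone 2 and -0.03 in clone 3. The same median for the lineage-restricted genes was -0.70, -0.11 and -0.55. In each clone, and for the -0.45 above, this median is the RAG1 value, as RAG1 stands between DNTT and RAG2. RAG1 is also the dimmest of the 3, and its detection was not assessed. Genes are not replicates of a condition, so this contrast between the gene groups is given without a test.

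The Ku subunits, which ring the broken DNA end, had the smallest differences of the end-joining genes. XRCC5, encoding Ku80, read 9.82, 9.95 and 9.95 in the clones labelled MondoA shRNA, against 10.12 and 9.95 in the control clones. The same value, 9.95, was deposited exactly for 3 of the arrays, and the groups meet there. Its difference was -0.13 ± 0.08 (SE), with a 95% interval of -0.35 to 0.10. It was -0.04 without control clone 1, -0.21 without control clone 2 and -0.08 without MondoA shRNA clone 1. XRCC6, encoding Ku70, read 10.19, 10.22 and 10.46 in the clones labelled MondoA shRNA, against 10.22 and 10.18 in the control clones. Clone 3 alone stood above the others. XRCC6 differed by 0.09 ± 0.10 (SE), with a 95% interval of -0.20 to 0.38, and by 0.01 without clone 3 and 0.14 without clone 1. Both Ku intervals leave out a doubling or a halving of the RNA.

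DNA-PKcs and Artemis, which work as a kinase and nuclease pair at hairpin ends, had differences of opposite sign. PRKDC, encoding DNA-PKcs, read 8.59, 8.15 and 8.58 in the clones labelled MondoA shRNA, against 8.87 and 8.71 in the control clones. All 3 clones labelled MondoA shRNA lay below both controls and clone 2 was the lowest. The PRKDC difference was -0.35 ± 0.18 (SE), with a 95% interval of -0.87 to 0.17 (adjusted p = 0.833, limma). Leaving out clone 2 gave -0.21. DCLRE1C, encoding Artemis, read 4.22, 4.54 and 4.13 in the clones labelled MondoA shRNA, against 4.19 and 4.14 in the control clones. Here clone 2 was the highest, and the groups overlapped. The DCLRE1C difference was 0.13 ± 0.15 (SE), and it was 0.01 without clone 2 and 0.22 without clone 3. Its level is near the median gene level of 4.15, and whether so dim a probe set was detected was not assessed.

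The ligation complex also split between its parts, and its largest value rested on 1 clone. XRCC4, the scaffold that stabilises ligase IV, read 5.36, 6.49 and 5.48 in the clones labelled MondoA shRNA, against 5.48 and 5.35 in the control clones. Clone 2 was higher by 1.07 than the control mean, and the other clones lay within or at the edge of the control range. The XRCC4 difference of 0.36 ± 0.42 (SE) had a 95% interval of -0.88 to 1.60, and it was 0.00 without clone 2 and 0.57 without clone 1. LIG4, encoding ligase IV, read 8.51, 8.997 and 8.97 in the clones labelled MondoA shRNA, against 9.07 and 8.97 in the control clones. Clone 1 alone was low, and the LIG4 difference of -0.19 ± 0.19 (SE) was -0.04 without it. NHEJ1, encoding the XRCC4-like factor that bridges ends, read 6.19, 6.64 and 6.67 in the clones labelled MondoA shRNA, against 6.33 in both control clones. Clones 2 and 3 lay above the controls and clone 1 below, with a difference of 0.17 ± 0.18 (SE). The unadjusted p of NHEJ1 with all arrays was 0.403 (limma). NHEJ1 differed by 0.32 without clone 1, where its unadjusted p was 0.000469 (adjusted p = 0.446, limma). In that fit its own spread came from clones 2 and 3 alone, as both control values were identical. NHEJ1 differed by 0.10 without clone 2 and by 0.09 without clone 3, with unadjusted p of 0.668 and 0.691 (limma).

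**Figure D3:**
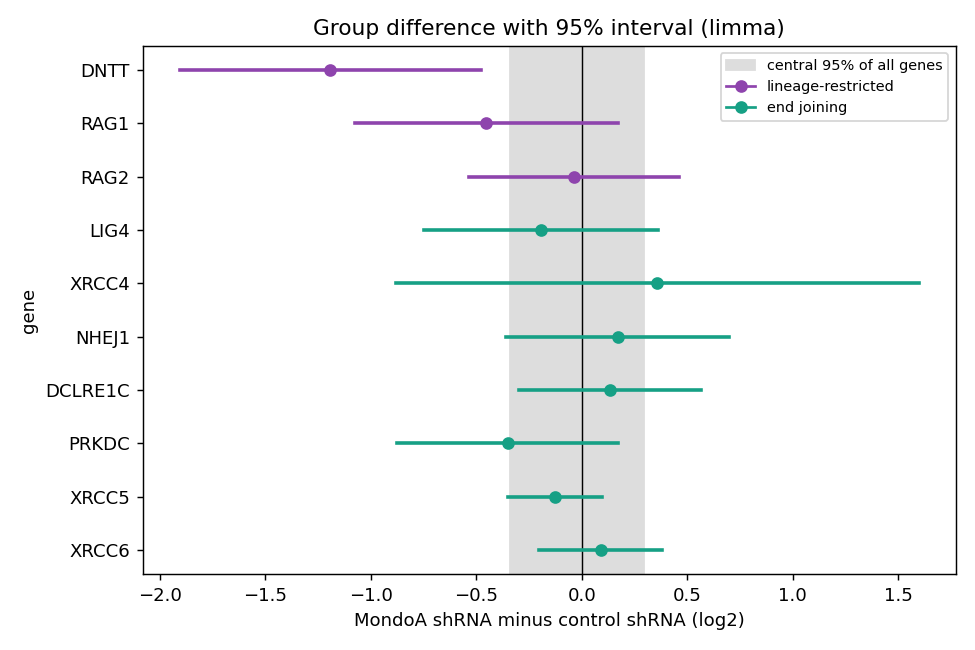
Difference between groups (MondoA shRNA minus control shRNA, log2, horizontal axis) for each gene, with limma's 95% interval as a bar and the central 95% of all genes shaded from -0.34 to 0.30. The DNTT interval, -1.91 to -0.48, is the only one that leaves out 0.

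Counted over the group, 1 of 10 genes was lower at an unadjusted p under 0.05 (2.18% of all genes were) and 0 of 10 were higher (1.55% of all genes). In 3 of 10 genes (DNTT, RAG1 and PRKDC) every clone labelled MondoA shRNA lay below both controls, where 5.18% of all genes did so, and in 0 of 10 every clone lay above, where 4.85% did. The deposited values repeat exactly between arrays for many genes, which lowers that share. Among genes with 5 different values, the same separation was seen in 16.6% on the lower side. Of the 10 genes, LIG4, XRCC4, NHEJ1 and XRCC5 hold such repeated values. The share of 16.6% therefore stands beside the remaining genes, with DNTT, RAG1 and PRKDC separated and RAG2, DCLRE1C and XRCC6 overlapping. Clone 1 held the lowest value for 5 of the 10 genes and the highest for 0, while clone 2 held the highest for 3. Over all genes clone 1 alone was lowest in 22.2% and clone 2 alone highest in 23.6%.

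The genes whose profile over the 5 arrays was nearest to that of DNTT were CLEC14A, CPM, JARID2, CDKN1A and GBE1. Nearness is the root mean square distance between deviations from each gene's 5-array mean, and it was 0.153 log2 units for CLEC14A and 0.171 for GBE1. CLEC14A, a C-type lectin gene, read 6.75, 7.27 and 6.94 with MondoA shRNA, against 8.47 and 8.35 with control shRNA, a difference of -1.42. CDKN1A, which encodes the cell cycle inhibitor p21, read 6.39, 6.74 and 6.36 with MondoA shRNA, against 7.42 and 7.37 with control shRNA, a difference of -0.90. JARID2, a subunit of a Polycomb complex, differed by -0.94, the carboxypeptidase gene CPM by -0.99 and GBE1, the glycogen branching enzyme gene, by -0.87. These genes were chosen for their likeness to DNTT, so their order of clones is no separate observation, and none passed the adjusted threshold in limma.

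XRCC4 was the other gene of the group with a range of at least 1 log2 unit, and its nearest profile was that of LSM5 at a distance of 0.0273. LSM5, a subunit of an RNA-binding ring, read 5.12, 6.32 and 5.27 with MondoA shRNA, against 5.24 and 5.13 with control shRNA. The splicing factor gene SF3B6 read 7.62, 8.64 and 7.55 with MondoA shRNA, against 7.62 and 7.56 with control shRNA. CLUAP1, a cilium gene, and the zinc finger gene ZNF43 also stood highest in clone 2, at 4.44 and 4.10. These genes were chosen for their likeness to XRCC4, so their peak in clone 2 is no separate observation. Another gene among the nearest 5 is not described here.

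**Figure D4:**
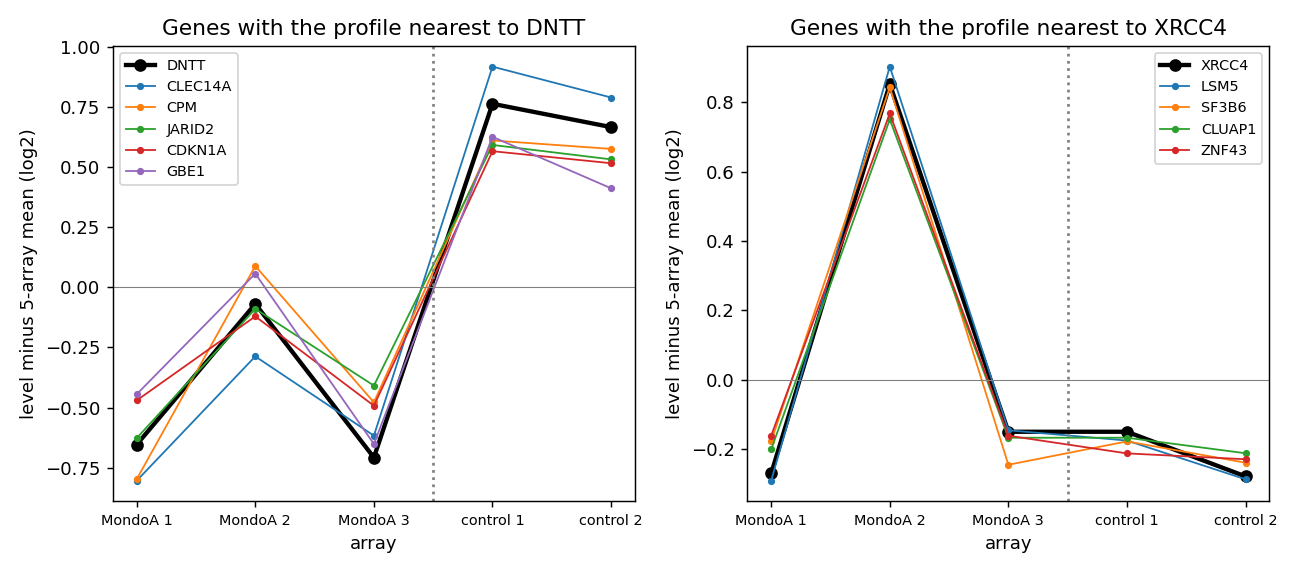
Level minus the 5-array mean (log2, vertical axis) on each array (horizontal axis; MondoA shRNA left of the dotted line, control shRNA right) for DNTT and XRCC4 in black and the genes nearest to each in colour; lines join the points of a gene and imply no order of arrays. The DNTT panel separates the groups, and the XRCC4 panel shows a peak in MondoA shRNA clone 2 alone.

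The surrounding genes were read from 8 lists, of which 5 hold relatives of TdT and repair factors and the other 3 hold partners of the recombinase, regulators of RAG or DNTT transcription, and precursor B-cell receptor genes with genes of immunoglobulin mutation. Of 82 measured genes in these lists, no gene passed the adjusted threshold and the median difference was 0.00. At an unadjusted p under 0.05 in limma, 6 were higher (1.55% of all genes were) and 2 were lower (2.18% of all genes). Of the 6 higher genes, 4 came from the lists of transcription regulators and of the precursor B-cell receptor, which are not repair genes. The relatives and partners of TdT, which are the polymerase genes POLB, POLL and POLM with DNTTIP1, DNTTIP2 and PCNA, had 0 of 6 genes at that level and a median of 0.06. PCNA, the sliding clamp gene, had the largest difference of that list at 0.14, and POLM, the closest relative of DNTT, differed by -0.11. The DNTT difference was therefore not accompanied by one of similar size in these 6 genes.

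Among the accessory factors of end joining, 1 of 7 genes was higher and 0 were lower at an unadjusted p under 0.05. It was PAXX, a further XRCC4-like factor, which read 7.14, 7.27 and 7.23 in the clones labelled MondoA shRNA, against 6.96 and 7.0 in the control clones. The groups did not overlap, with PAXX higher by 0.23 ± 0.05 (SE; adjusted p = 0.833, limma). In the list of break sensing and signalling 1 of 13 genes was lower, the kinase gene ATM, and 0 were higher. ATM read 5.43, 5.48 and 5.27 in the clones labelled MondoA shRNA, against 5.90 and 5.64 in the control clones, a difference of -0.37 (adjusted p = 0.833, limma). Alternative end joining had 0 of 7 genes at that level, with XRCC1, a scaffold of strand break repair, at -0.11 as its largest. In homologous recombination 1 of 12 was higher, the nuclease and helicase gene DNA2 at 0.20, and 0 were lower, while the helicase gene BLM had the largest difference at -0.34. The medians of these 4 lists lay between -0.01 and 0.01.

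Genes that act on the recombinase or on its transcription differed in both directions. Of 10 partners and cofactors 1 was lower and 0 were higher, and the lower one was RUNX1, a transcription factor of blood cells. RUNX1 read 7.18, 7.08 and 7.09 in the clones labelled MondoA shRNA, against 7.36 and 7.43 in the control clones, a difference of -0.27 ± 0.05 (SE). Of 19 regulators of RAG or DNTT transcription 2 had an unadjusted p under 0.05 with higher values and 0 with lower. IKZF3, the Ikaros family gene for Aiolos, read 3.15, 3.09 and 3.12 in the clones labelled MondoA shRNA, against 2.59 and 2.70 in the control clones. The groups stood apart by a difference of 0.47 ± 0.04 (SE, adjusted p = 0.435, limma), at levels below the median gene. TCF3, the E protein gene, read 8.07, 8.20 and 8.003 in the clones labelled MondoA shRNA, against 7.83 and 7.85 in the control clones, a difference of 0.25. ERG, an ETS family gene, had the largest difference of the list at -0.69, and its SE of 0.36 reflects a clone 1 value of 6.10 beside 7.09 and 6.88 in clones 2 and 3.

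The precursor B-cell receptor assembles after recombination at the heavy chain locus. The list of its genes, which also holds the immunoglobulin mutation gene UNG, had 2 of 8 members with higher values at an unadjusted p under 0.05, and 0 with lower ones. CD79A, a signalling subunit of that receptor, read 8.46, 7.98 and 8.38 in the clones labelled MondoA shRNA, against 7.38 and 7.35 in the control clones, a difference of 0.91 (adjusted p = 0.833, limma). Clone 2 was again the nearest to the controls. Its partner CD79B read 8.49, 8.43 and 8.55 with MondoA shRNA, against 8.22 and 8.25 with control shRNA, a difference of 0.25. The surrogate light chain genes IGLL1 and VPREB1 differed by 0.21 and 0.11, and the groups overlapped for both genes.

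**Figure D5:**
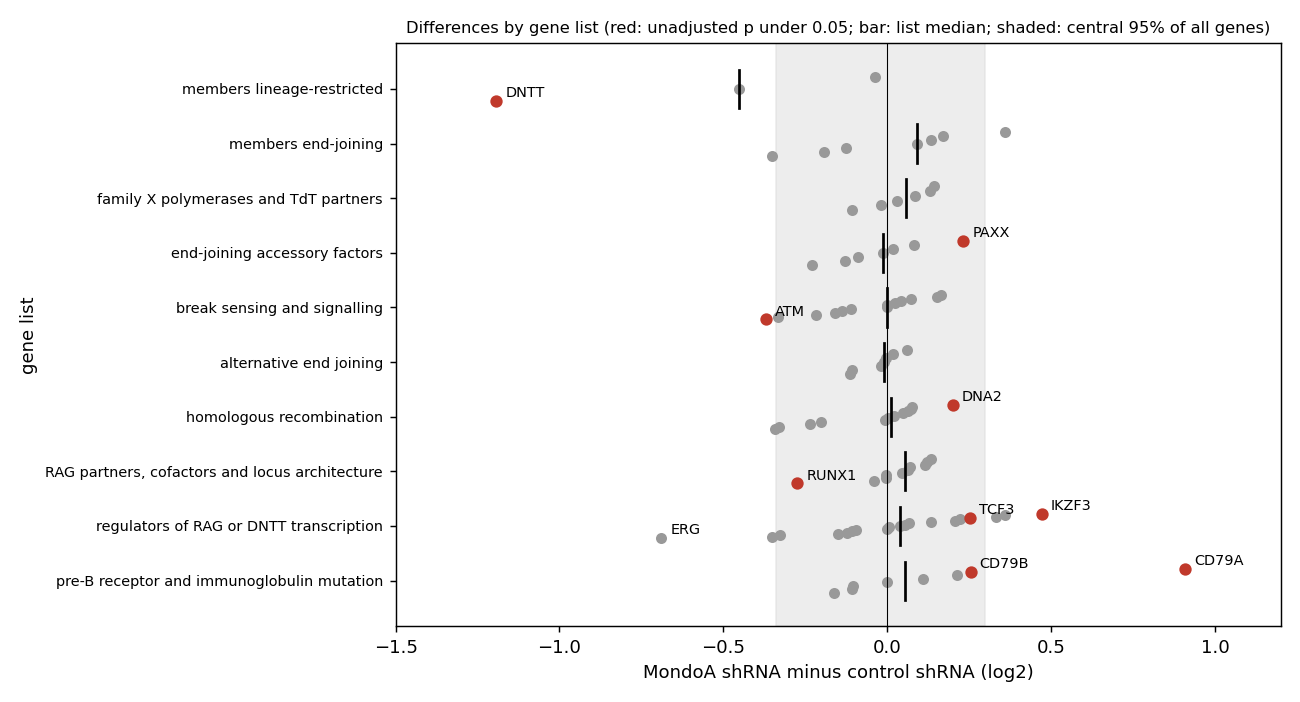
Difference of each gene (MondoA shRNA minus control shRNA, log2, horizontal axis) by gene list (vertical axis), with the list median as a bar, genes at an unadjusted p under 0.05 in red and the central 95% of all genes shaded. DNTT at -1.19 and CD79A at 0.91 lie farthest out on either side, and the repair lists cluster near 0.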

How the data were processed

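The authors deposited 1 log2 value per probe set and array, made by RMA in Affymetrix Expression Console 1.1, per the submitters' processing notes. The base of the logarithm is not given in the sources used here and was taken as 2. RMA subtracts background, equalises the distributions of the arrays and combines probes by median polish. In the deposited values 54.0% of genes had the same value in at least 3 arrays, and the source of these repeats was not tested. Of 33297 probe sets, 19460 had exactly 1 symbol in the platform annotation. Symbols were updated by Entrez number through a RefSeq table of GRCh38.p14 (19429 matched), and per gene the probe set of highest mean level was kept, leaving 18417 genes.

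Groups followed the titles. All genes were fitted together with limma 3.58.1 in R 4.3.3 (two-sided, empirical Bayes, Benjamini-Hochberg adjustment over all genes, threshold 0.05). The step was run on simulated data that held no repeated values, so that run does not cover the repeats in these arrays. Alternatives left out each array, used the replicate number as a block, normalised or centred again, dropped dim or tied genes, treated probe sets otherwise, or changed the variance model (statmod 1.5.0 for array weights) or threshold. The members, lists and tests were chosen with earlier results of these data known. Genes were named by rule: the 10 members, list genes at an unadjusted p under 0.05 or with the largest difference of their list, the 5 nearest profiles for members with a range of at least 1, and measured genes overlapping a member. Further list genes named for context were chosen after their values were seen. Marker lists covered B-precursor, T-lineage, myeloid and fibroblast genes. The number of arrays limits the precision, and no detection calls or batches were used here.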

Additional observations from a re-analysis of the deposited data

How the results depend on the processing

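No gene passed the adjusted threshold in limma over all genes, and 687 stood at an unadjusted p under 0.05. Repeating the quantile normalisation gave 2 genes, median centring 2, dropping the moderation 3 and keeping only untied genes 60. Leaving out single arrays gave 0 to 752. In those fits a lone control clone is taken to have the spread of the other clones, and 752 and 454 genes passed without control clones 1 and 2. Of the 10 members 0 passed, and 1 (DNTT) passed over genes without tied values. The count of members at an unadjusted p under 0.05 was 1. It was 2 with array weights, 2 over genes without tied values (DNTT and RAG1) and 0 to 2 with 1 array left out, where NHEJ1 was added without MondoA shRNA clone 1, RAG1 was added without clone 2 and DNTT was lost without control clone 1 and without control clone 2. With the replicate number as a block it was 0, with DNTT at -1.08 (unadjusted p = 0.0892, limma). Deviations of same-numbered clones correlated at -0.29 and -0.23 across genes. Those of MondoA shRNA clone 1 with control clone 2 correlated at 0.29, and those of clone 2 with control clone 1 at 0.23. With 2 control arrays these values mirror the others, so they cannot show whether arrays share a batch. The numbers were not used as pairs. RAG2 ran from -0.173 to 0.0711 with single arrays left out (above 0 without MondoA shRNA clone 1) and was the only member to change sign under any alternative run. DNTT ran from -1.40 to -1.08 over its 15 alternatives, with adjusted p from 0.0307 to 0.836. The median of the lineage-restricted genes, which is the RAG1 value, ran from -0.63 to -0.33 and that of the end-joining genes from 0.00 to 0.14.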

Other observations

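Measured genes that overlap a member on the chromosome had differences near 0. IFTAP, which overlaps RAG2 in the RefSeq table, read 2.32, 2.35 and 2.29 with MondoA shRNA, against 2.27 and 2.29 with control shRNA, a difference of 0.04. SUV39H2, a histone methyltransferase gene that overlaps DCLRE1C, read 6.63 in all 3 MondoA shRNA arrays, against 6.63 and 6.57 in the control arrays. MEIG1, which also overlaps DCLRE1C, read 2.15, 2.38 and 2.14 with MondoA shRNA, against 2.15 and 2.26 with control shRNA, a difference of 0.02. IFTAP and MEIG1 lie below the median gene level of 4.15, and whether they were detected was not assessed. The other genes that overlap a member had no probe set with a single symbol. Array weights estimated by limma were 0.503, 0.405 and 3.06 for MondoA shRNA clones 1, 2 and 3, against 1.27 for each control clone. With these weights the DNTT difference was -1.35, with an adjusted p of 0.334.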
